A study of Homo sapiens with 6 samples.

Results

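The immediate early and activity-induced genes are 42 listed genes, chosen by symbol, and all 42 were among the 18056 genes of the expression table. Of these, 41 had enough reads to be tested. EGR4, a zinc finger factor of activated neurons, was not tested, with 5 to 10 estimated counts per library. The 42 genes were placed in 6 roles: 7 AP-1 subunits, 7 EGR and NR4A factors, 10 other induced regulators, 7 feedback genes of the ERK pathway, 5 other feedback genes and 6 genes of neuronal activity.

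Expression was measured by bulk RNA sequencing in 6 libraries of forebrain organoids, cell aggregates that organise themselves into tissue resembling the dorsal forebrain. All were grown from the wild-type induced pluripotent stem cell line DYR0100, so the data describe a single line. In 3 libraries the organoids had received vehicle, and in 3 they were exposed for 6 days to 5 µM of Aβ42, an amyloid-β peptide that aggregates readily. The labels place all libraries in 1 batch and give neither the age of the organoids, the number pooled per library nor the vehicle.

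Immediate early genes are transcribed within minutes of a stimulus without new protein synthesis, through factors such as SRF with its ERK-activated ETS partners and CREB, which answers to calcium and cyclic AMP. Many encode transcription factors, among them the FOS and JUN proteins that pair as AP-1, while others, such as the DUSP phosphatases and the SPRY proteins, turn ERK signalling down again. In neurons a further set, including ARC, NPAS4, BDNF and HOMER1, follows synaptic activity. The first wave is short-lived, and 6 days is the only time sampled here.

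Reading depth was even, at 16465390 to 16742958 estimated counts per library. The neuronal marker list and the progenitor marker list were abundant (summed levels of 6177 to 7011 and 3002 to 3112 CPM, counts scaled to library size). Of the microglia list, C1QA, C1QB, TYROBP and TREM2 were at 0 counts throughout, where a true level of up to 3 counts per library could be missed. All 9 genes of that list together summed to 2.64 to 3.48 CPM in vehicle and 3.35 to 3.44 CPM with Aβ42. Only 1 of them had enough reads to be tested. In bulk RNA, fewer cells of a type and less RNA per cell cannot be told apart. Aβ42 replicate 2 stood apart from the other Aβ42 libraries, with a sample quality weight of 0.395 against 1 to 1.63 in the other 5. On the first principal component (51.6% of the variance) it scored -3.73, against 16 and 12 in Aβ42 replicates 1 and 3. Vehicle replicates 1 and 3 scored -2.69 and -3.96, and vehicle replicate 2 lay apart from them at -17.6. The number 2 library thus scored lowest in each group. Libraries that share a number deviated together from the means of their groups, most clearly those numbered 2. For numbers 1 and 3 the data do not settle which libraries pair. Results are therefore also given with a block for the replicate number where that changes them, and without Aβ42 replicate 2.

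The sequences just upstream of 5 members are shown, 1 or more from the AP-1, EGR, induced regulator and ERK feedback roles. They were chosen because they hold letters of elements known from early gene control. FOS, JUN and IER2 passed the test with a block while EGR1 and DUSP1 did not, which also entered the choice. Any link between these letters and the fold changes was not tested. The sequences are the 250 bases before the annotated start in RefSeq (GRCh38.p14), 5′ to 3′ on the strand of the gene. FOS lies at chr14:75278578-75278827 (plus strand), JUN at chr1:58784048-58784297 (minus), IER2 at chr19:13150161-13150410 (plus), DUSP1 at chr5:172771196-172771445 (minus) and EGR1 at chr5:138465229-138465478 (plus). Capitals mark the core of the CREB element (TGACG, read on both strands), the full palindrome TGACGTCA that contains it, the variant TGACATCA, the CArG box bound by SRF, and TATAAA on the strand of the gene.
FOS: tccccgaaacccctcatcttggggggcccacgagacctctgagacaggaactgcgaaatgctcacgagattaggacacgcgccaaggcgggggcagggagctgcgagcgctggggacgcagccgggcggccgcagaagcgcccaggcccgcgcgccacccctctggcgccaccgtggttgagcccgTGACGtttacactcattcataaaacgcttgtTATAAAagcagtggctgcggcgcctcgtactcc
JUN: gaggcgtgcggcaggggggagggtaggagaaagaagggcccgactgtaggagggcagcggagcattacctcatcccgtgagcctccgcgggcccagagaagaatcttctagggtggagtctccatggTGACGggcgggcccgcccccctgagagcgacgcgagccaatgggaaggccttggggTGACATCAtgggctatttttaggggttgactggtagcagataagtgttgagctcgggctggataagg
IER2: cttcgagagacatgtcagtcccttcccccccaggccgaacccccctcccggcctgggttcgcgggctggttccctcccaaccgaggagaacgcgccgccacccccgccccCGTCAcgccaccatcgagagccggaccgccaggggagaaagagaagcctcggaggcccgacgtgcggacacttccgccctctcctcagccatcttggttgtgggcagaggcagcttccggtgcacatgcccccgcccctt
DUSP1: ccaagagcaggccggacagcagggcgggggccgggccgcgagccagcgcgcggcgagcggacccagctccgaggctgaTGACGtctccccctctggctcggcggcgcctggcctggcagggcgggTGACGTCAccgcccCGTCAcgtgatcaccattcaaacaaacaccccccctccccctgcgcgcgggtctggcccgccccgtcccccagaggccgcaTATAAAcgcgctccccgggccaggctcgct
EGR1: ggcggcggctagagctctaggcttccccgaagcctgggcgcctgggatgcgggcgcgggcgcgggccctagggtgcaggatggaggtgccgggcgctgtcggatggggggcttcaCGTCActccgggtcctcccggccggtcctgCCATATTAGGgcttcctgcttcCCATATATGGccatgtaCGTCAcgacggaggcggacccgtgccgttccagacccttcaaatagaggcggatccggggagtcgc

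In these windows JUN held TGACATCA starting 67 bases before its start and a TGACG core at 123, FOS held a core at 64 and TATAAA at 33, and IER2 held 1 core at 140. DUSP1 held the full palindrome at 125, cores at 172, 125, 122 and 111 (those at 125 and 122 within the palindrome) and TATAAA at 30, and EGR1 held CArG boxes at 105 and 83 and cores at 135 and 66. RefSeq windows were matched for 32 of the 42 members (45 windows, since some genes have several starts), and FOSL1, EGR3, NR4A2, KLF10, MYC, DUSP4, DUSP5, IER3, TRIB1 and ARC had none. The core TGACG was in 24 of the 45 windows (53.3%) and in 21.2% of all 35116 windows of the same length. TGACGTCA was in 4 (DUSP1, VGF, JUND and MAFF), or 8.89% against 1.65%, and the CArG box in 3 (EGR1, EGR2 and SRF), or 6.67% against 1.16%. TATAAA was in 5 windows, or 11.1% against 6.80%, and TGACATCA in 2 (JUN and KLF6), or 4.44% against 2.37%. No member window held the AP-1 letters TGANTCA (6.57% of all windows), the EGR letters GCGTGGGCG (0.720%) or the NR4A letters AAAGGTCA (1.05%), each read on both strands, which says only that these letters are not in the 250 bases. The same limit holds for the other letters, such as the CArG box missing from the FOS window, since bases further upstream were not searched.

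At baseline the organoids already carried a range of these transcripts. Levels between genes are compared in TPM, the relative abundance of transcripts scaled for gene length. In vehicle the highest were JUN (184 TPM), SPRY2 (144 TPM), EGR1 (99.1 TPM), KLF10 (73.3 TPM), NR4A2 (63.4 TPM), VGF (61.4 TPM), JUND (61.3 TPM) and FOS (56.9 TPM). At the other end were EGR4 (0.567 TPM), KLF2 (0.473 TPM), NPTX2 (1.19 TPM), KLF4 (1.36 TPM), BDNF (1.84 TPM), FOSB (2.18 TPM), ZFP36 (2.48 TPM) and FOSL1 (2.77 TPM). Within AP-1, JUN stood above JUND and FOS, JUNB (20.2 TPM) followed, and FOSL2 (7.56 TPM), FOSB and FOSL1 were lowest. The members varied more between replicate libraries than other genes did: their median coefficient of variation was 11.7% in vehicle and 11.2% with Aβ42, against 5.50% and 7.16% over all 13842 genes tested.

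**Figure D1:**
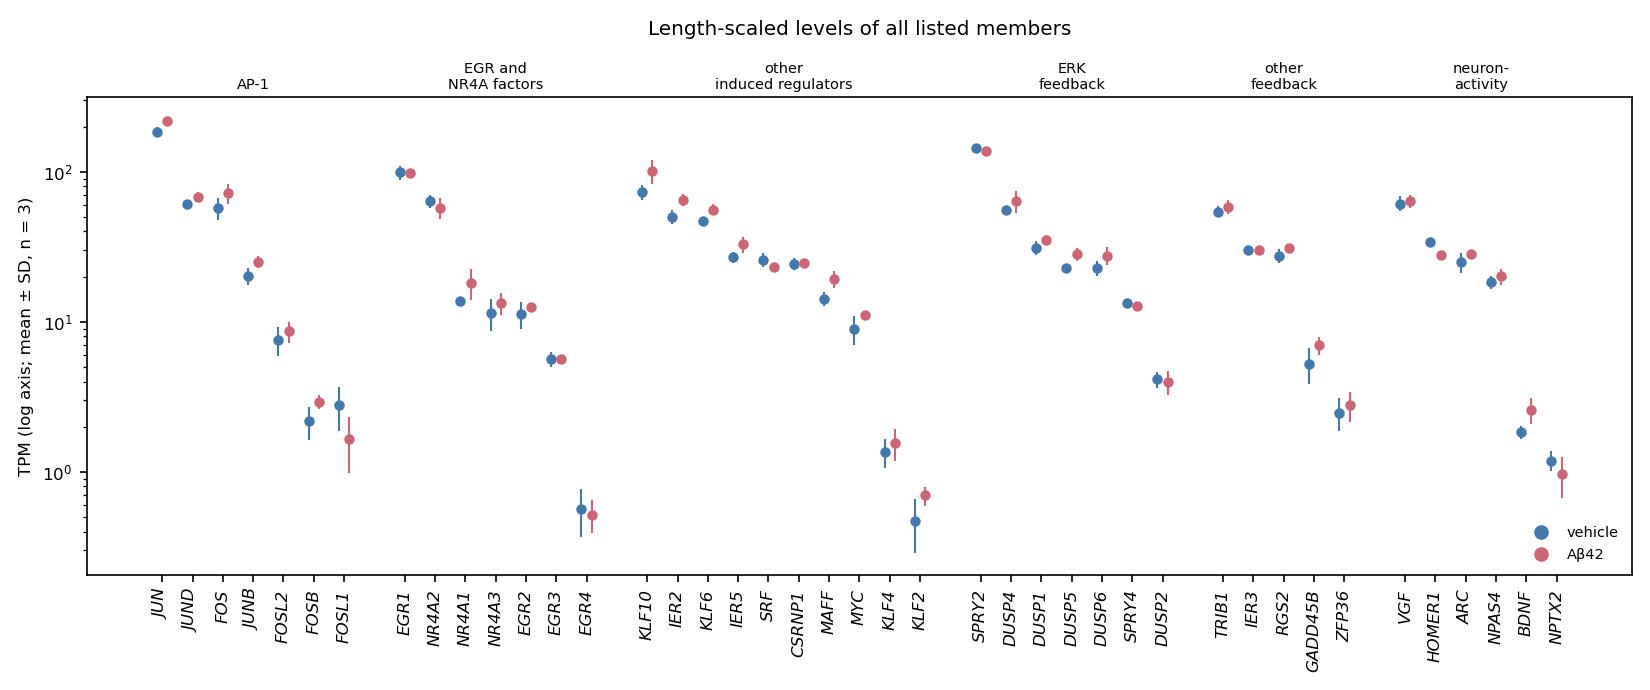
Level of each of the 42 members in TPM on a log axis, as mean ± SD over 3 vehicle libraries (blue) and 3 Aβ42 libraries (red), ordered within each role. JUN (184 TPM in vehicle) is at the top and KLF2 (0.473 TPM) at the bottom, and the distance between genes is far larger than that between the groups.

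That variation was largely shared. Of the 41 tested members, 27 had their lowest vehicle value in replicate 2 (65.9%, against 35.1% of all genes tested), and 30 had their lowest Aβ42 value in replicate 2 (73.2%, against 38%). Vehicle replicate 1 was the highest of the vehicle libraries for 23 members (56.1%, against 34.7% of all genes tested). Aβ42 replicate 1 was the highest of the Aβ42 libraries for 20 (48.8%, against 32.7%). The summed choroid plexus markers (4 genes) were highest in the same libraries, at 938 CPM in vehicle replicate 2 and 877 CPM in Aβ42 replicate 2 against 382 to 485 CPM in the other 4. The astrocyte, endothelial and mesenchymal sums were also highest in the number 2 library of each group. They were at 852, 4.26 and 79.6 CPM in vehicle and 802, 3.68 and 45.4 CPM with Aβ42. The endothelial sum was low, and only 2 of its 5 genes had enough reads to be tested. The part of these marker sums in the members' values was not tested. Groups overlapped for several members whose same-numbered libraries all differed in the same direction.

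**Figure D2:**
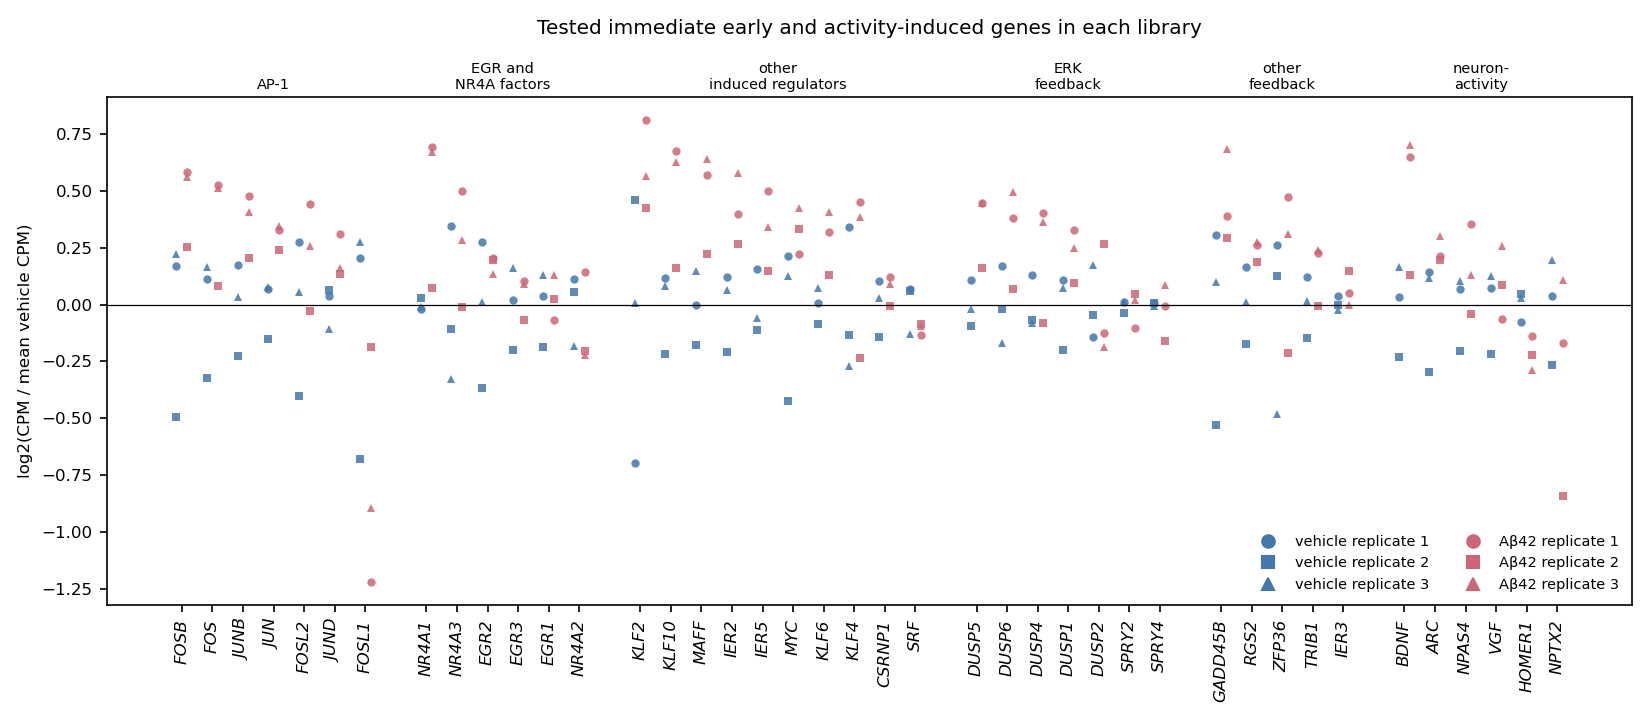
Log2 ratio of CPM in each library to the mean vehicle CPM, for the 41 tested members in 6 roles (vehicle blue, Aβ42 red, and circles, squares and triangles for replicates 1, 2 and 3). Squares lie lowest within their own colour for most members, and in AP-1 the red points lie above the blue points for JUN, JUNB, JUND and FOSB.

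The comparison of Aβ42 with vehicle asks which of these transcripts differ after exposure. With Aβ42 the fitted fold changes of the AP-1 subunits other than FOSL1 ran from 1.15 to 1.39, and those of the regulators KLF10, MAFF, IER2, IER5 and KLF6 from 1.22 to 1.42. NR4A1 (1.42) and the ERK phosphatases DUSP5 (1.28) and DUSP6 were on the same side, HOMER1 (0.86) was on the other, and EGR1, EGR3, SPRY2 and SPRY4 had log2 fold changes between -0.02 and 0.05. No member reached a 2-fold difference in the fit of all 6 libraries. In the edgeR fit without a block, no member had an adjusted p-value under 0.05 (0% of all genes tested did). The smallest among the members was 0.0691, 15 of the 41 had an unadjusted p-value under 0.05, and DESeq2 called 7 of the 36 members to which it gave an adjusted p-value, all higher (3.01% of all genes with one were called higher and 3.29% lower). With a block for the replicate number, 12 of 41 passed, 11 of them higher (7.12% of all genes tested) and 1 lower (7.05%), with adjusted p-values from 7.86e-05 to 0.0452. The 12 were JUN, FOS, JUNB, NR4A1, KLF6, KLF10, MAFF, IER2, IER5, DUSP5 and DUSP6, all higher, and HOMER1, lower. Their adjusted p-values ran from 7.86e-05 to 0.487 over 22 alternatives.

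Across the members, 33 had a positive and 8 a negative log2 fold change, where 7024 of the 13842 genes tested were positive, and the median was 0.23 against 0.003 over all genes. Of the 15 with an unadjusted p-value under 0.05, 14 were in the higher direction (34.1%, against 12.4% of all genes) and 1 was in the lower direction (11.5% of all genes). Groups did not overlap for 13 members that were higher (31.7%, against 13.6%) and 1 that was lower (13.4% of all genes). Counted by same-numbered libraries, 25 members were higher with Aβ42 in all 3 pairs (25.6% of all genes tested) and 2 were lower in all 3 (24.6%). Without Aβ42 replicate 2, 16 members passed as higher (11.5% of all genes) and 1 as lower (11.6%), and these 17 held all 12 of the block and also JUND, DUSP1, DUSP4, TRIB1 and BDNF. The library left out here was the lowest Aβ42 library for 30 members. The block count depended on which numbers entered, and so did the count over all genes. Without both libraries numbered 1, KLF10 and IER2 passed, both higher (0.605% of all genes tested were called higher and 0.505% lower). Without number 2, 14 members passed as higher (7.31%) and FOSL1 as lower (7.36%). Without number 3, 6 members passed, all higher (1.89%, and 1.85% of all genes lower).

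**Figure D3:**
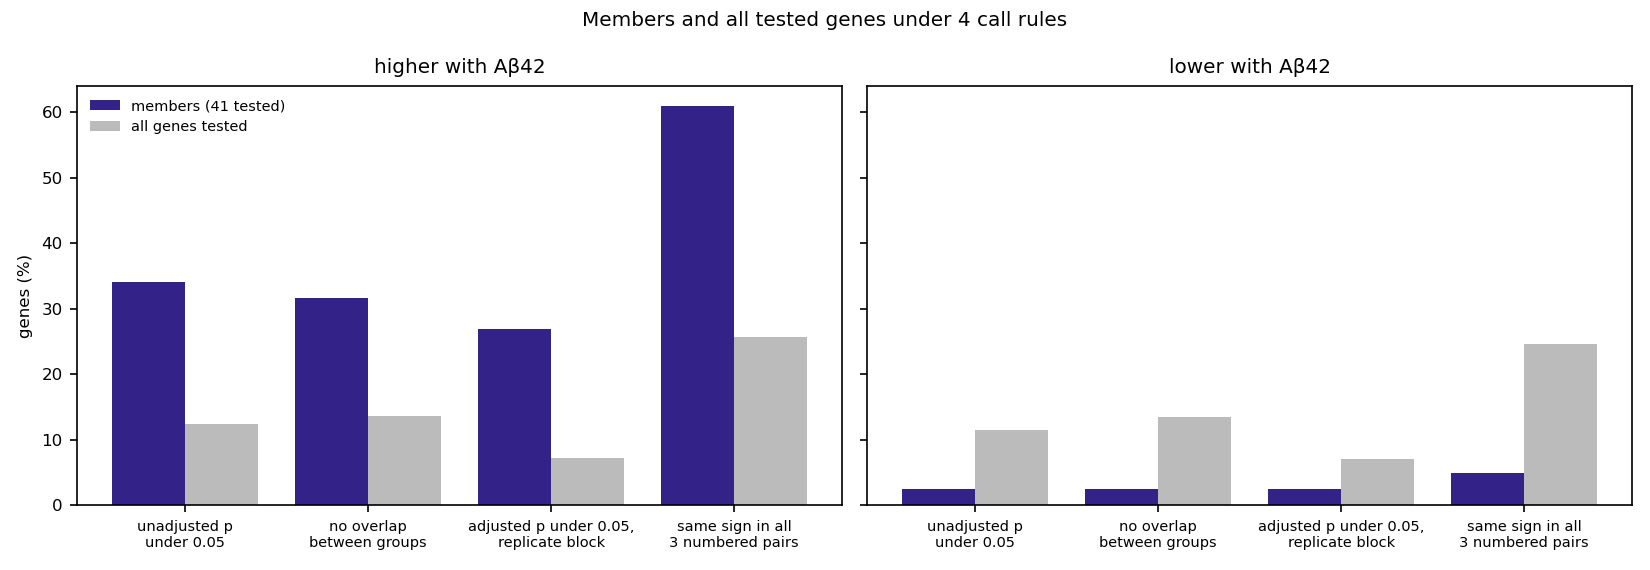
Percent of the 41 tested members (dark) and of all genes tested (grey) that were higher (left) or lower (right) with Aβ42 under 4 rules: unadjusted p under 0.05, no overlap between groups, adjusted p under 0.05 with the replicate block, and the same sign in all 3 same-numbered pairs. On the left the members' bars stand above the grey bars under each rule, such as 34.1% against 12.4% for the unadjusted p, and on the right they stand below.

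Of the 7 AP-1 subunits, FOS, JUN and JUNB rose in the fit with the block. Higher values in all 3 same-numbered pairs were found for 6 subunits (25.6% of all genes tested), and the median log2 fold change was 0.30. JUN, the central partner of AP-1 dimers (Entrez gene ID 3725), was at 233, 199.9 and 234 CPM in vehicle replicates 1 to 3 and at 279, 262 and 282 CPM in Aβ42 replicates 1 to 3. Every Aβ42 library was above every vehicle library, and the log2 fold change was 0.30 ± 0.06 (SE), with an edgeR adjusted p-value of 0.0691 and of 0.00108 with the block (0.00108 to 0.296 over 22 alternatives). FOS (2353), the inducible partner of JUN, was at 45.2, 33.4 and 46.8 CPM in vehicle and at 60.1, 44.2 and 59.7 CPM with Aβ42. The Aβ42 library numbered 2 lay below the vehicle libraries numbered 1 and 3, so the groups overlapped, yet within same-numbered pairs the log2 differences were 0.41, 0.40 and 0.35. Its log2 fold change was 0.39 ± 0.16, and the edgeR adjusted p-value was 0.211 without and 0.000967 with the block (0.000967 to 0.487 over the alternatives).

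JUNB (3726), a JUN relative that can restrain JUN, was at 14.1, 10.7 and 12.8 CPM in vehicle and 17.4, 14.4 and 16.6 CPM with Aβ42. JUND (3727), the most constant subunit in many tissues, was at 41.6, 42.3 and 37.6 CPM and at 50.2, 44.4 and 45.3 CPM. Neither gene overlapped between groups, and their log2 fold changes were 0.37 ± 0.12 (edgeR adjusted p-value 0.115, and 0.0171 with the block) and 0.20 ± 0.07 (0.131, and 0.0547 with the block). FOSB (2354), another FOS family member, did not overlap either, at 2.19 to 3.60 CPM and 3.68 to 4.63 CPM, with an unadjusted edgeR p-value of 0.0518. FOSL2 had a log2 fold change of 0.23 ± 0.18 with overlapping groups. FOSL1, the subunit known from growth factor responses, went the other way, at 1.80, 0.973 and 1.89 CPM in vehicle and 0.670, 1.37 and 0.840 CPM with Aβ42 (log2 fold change -0.69 ± 0.35, unadjusted p-value 0.0774). It rested on 11 to 31 counts per library, and only in the libraries numbered 2 was the Aβ42 value the higher one. Without both of those libraries its log2 fold change was -1.28 with the block (edgeR adjusted p-value 0.0237, and 0.0237 to 0.672 over the alternatives), and without Aβ42 replicate 2 alone it was -1.03 (0.0667).

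**Figure D4:**
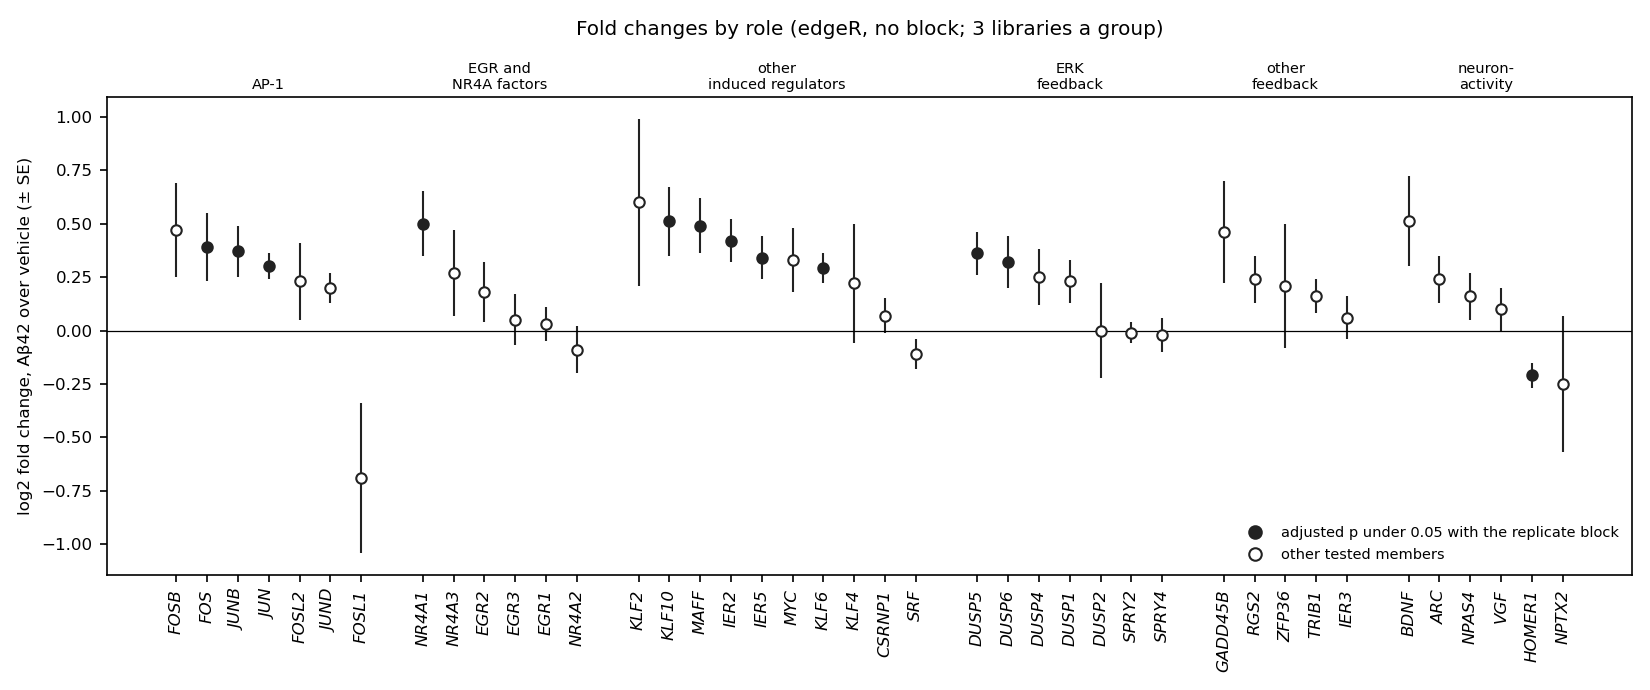
Log2 fold change of Aβ42 over vehicle with its SE for the 41 tested members, from edgeR without a block, ordered within each role. Filled points are the 12 members with an edgeR adjusted p below 0.05 once the replicate block is included, and of these 12 only HOMER1 lies below 0.

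Of the EGR and NR4A factors, NR4A1 alone passed with the block. These are zinc finger factors downstream of SRF and orphan nuclear receptors, and their median log2 fold change over 6 tested genes was 0.11. EGR1 (1958), the best known of them, was at 118, 101 and 126 CPM in vehicle and 109.8, 117 and 126 CPM with Aβ42. The groups covered the same range, and the log2 fold change was 0.03, with -0.14 to 0.19 as the estimate ± 2 SE. EGR3 (0.05) and EGR2 (0.18) had unadjusted p-values of 0.724 and 0.232. NR4A1 (3164) was at 13.7, 14.2 and 13.8 CPM in vehicle and at 22.5, 14.6 and 22.1 CPM with Aβ42, so replicates 1 and 3 were well above vehicle and replicate 2 was just above it. Its log2 fold change was 0.50 ± 0.15 (edgeR adjusted p-value 0.105, 0.0180 with the block, and 0.000406 to 0.349 over the alternatives) and 0.68 without Aβ42 replicate 2. NR4A1 was the 1 member with counts that were not whole numbers, and how its reads were shared out is not given in the sources used here. NR4A2, a receptor also used in dopamine neurons, was at 87, 83.8 and 71.1 CPM in vehicle and 88.9, 70.0 and 69.1 CPM with Aβ42, and NR4A3 had 19.9 to 31.8 CPM and 24.8 to 35.3 CPM. Both overlapped, with log2 fold changes of -0.09 ± 0.11 and 0.27 ± 0.20.

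Among the 10 other induced regulators, KLF10, MAFF, IER2, KLF6 and IER5 had unadjusted p-values under 0.05, all higher, and these 5 also passed with the block. KLF10 (7071), a zinc finger factor induced by TGF-β, was at 85.7, 67.9 and 83.5 CPM in vehicle and 126, 88.3 and 122 CPM with Aβ42. The groups did not overlap, although Aβ42 replicate 2 was only just above the highest vehicle library. It had a log2 fold change of 0.51 ± 0.16 and the smallest adjusted p-value of the members with the block (0.135 without and 7.86e-05 with it, and up to 0.385 over the alternatives). MAFF (23764), a small MAF protein that pairs with other bZIP factors, was at 12, 10.6 and 13.3 CPM and 17.8, 14.0 and 18.7 CPM, and its log2 fold change was 0.49 ± 0.13 (edgeR adjusted p-value 0.0798, and 0.00343 with the block). IER2 (9592), a nuclear protein of the first wave, was at 40.2, 32.0 and 38.7 CPM and 48.8, 44.5 and 55.2 CPM, giving a log2 fold change of 0.42 ± 0.10 (0.0734, and 0.00106 with the block). KLF6 (1316), a zinc finger factor of injury responses, was at 83.6, 78.6 and 87.5 CPM and 104, 91.2 and 110.5 CPM, giving a log2 fold change of 0.29 ± 0.07 (0.0734, and 0.00243 with the block). In MAFF, IER2 and KLF6 every Aβ42 library was above every vehicle library, and the libraries numbered 2 were the lowest of each group.

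IER5 (51278), a relative of IER2, was at 48.1, 39.9 and 41.4 CPM and 61.0, 47.7 and 54.6 CPM, where Aβ42 replicate 2 fell just below vehicle replicate 1. Its edgeR adjusted p-value was 0.101 without and 0.00275 with the block, at a log2 fold change of 0.34 ± 0.10. MYC (4609), the growth regulator, was at 9.85 to 15.3 CPM and 15.4 to 17.7 CPM, groups that barely separated, and the log2 fold change was 0.33 ± 0.15 (edgeR adjusted p-value 0.210, and 0.08 with the block). SRF itself, the factor that drives much of the first wave, was at 35.7 to 41.0 CPM and 35.6 to 36.9 CPM (log2 fold change -0.11 ± 0.07). CSRNP1 had a log2 fold change of 0.07 ± 0.08. KLF2 and KLF4, which are best known from vessel walls and stem cells, rested on 5 to 14 and 20 to 33 counts per library, and their log2 fold changes of 0.60 ± 0.39 and 0.22 ± 0.28 were not distinguishable from 0 at this depth.

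Of the 7 ERK feedback genes, DUSP5 and DUSP6 passed with the block. DUSP5 (1847), a nuclear phosphatase that inactivates ERK, was at 21.9, 19.0 and 20 CPM in vehicle and 27.7, 22.7 and 27.7 CPM with Aβ42, with no overlap and a log2 fold change of 0.36 ± 0.10 (edgeR adjusted p-value 0.0849, 0.00764 with the block, and 0.00288 to 0.328 over the alternatives). DUSP6 (1848), its cytoplasmic relative, was at 34.9, 30.6 and 27.6 CPM and 40.4, 32.5 and 43.7 CPM, a log2 fold change of 0.32 ± 0.12 (0.148, and 0.0452 with the block). With the block and the correction for transcript length DUSP6 no longer passed, and FOSL2 did. DUSP1 (1843), which also acts on JNK and p38, was at 23.3, 18.8 and 22.7 CPM and 27.1, 23.1 and 25.7 CPM. Its groups overlapped slightly, and the unadjusted p-value was 0.0427. DUSP4 (1846), a nuclear ERK phosphatase, was at 131, 114 and 113 CPM in vehicle and 158, 113 and 154 CPM with Aβ42, so Aβ42 replicate 2 lay with the vehicle libraries. Its log2 fold change went from 0.25 (adjusted p-value 0.302) to 0.38 (0.00161) without that library.

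The Sprouty genes, which block receptor tyrosine kinase signalling upstream of RAF, gave narrow intervals around 0. SPRY2 (10253) was at 119, 115 and 119 CPM in vehicle and 109.9, 122 and 119.6 CPM with Aβ42, and the estimate ± 2 SE ran from -0.11 to 0.10. SPRY4 (81848) was at 25.5 to 25.7 CPM and 22.9 to 27.2 CPM, and its interval ran from -0.18 to 0.13. DUSP2, a phosphatase best known from immune cells, had 34 to 47 counts per library and an interval of -0.44 to 0.44. The difference in response between phosphatases and Sprouty genes was not itself tested.

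Other feedback genes had positive log2 fold changes of 0.06 to 0.46, with a median of 0.21. Their edgeR adjusted p-values with the block ran from 0.0841 to 0.736, and without it RGS2 alone was under 0.05 before adjustment. RGS2 (5997), which shortens G protein signals, was at 12.9, 10.2 and 11.6 CPM and 13.8, 13.1 and 13.9 CPM, without overlap (log2 fold change 0.24 ± 0.11, adjusted p-value 0.208). TRIB1, a pseudokinase that binds MEK1 and COP1, was at 65.5, 54.3 and 60.9 CPM and 70.4, 59.9 and 71.2 CPM. Its groups overlapped, as did those of GADD45B, a stress and activity gene of neurons, at 1.58 to 2.82 CPM and 2.79 to 3.66 CPM. IER3, an early gene linked to ERK and survival, was at 11.5, 11.2 and 11 CPM and 11.6, 12.4 and 11.2 CPM (log2 fold change 0.06 ± 0.10). ZFP36, which promotes decay of AU-rich transcripts, had 17 to 33 counts per library and overlapped widely.

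The genes of neuronal activity were mixed: 4 of 6 had positive and 2 negative log2 fold changes, with a median of 0.13, and only HOMER1 passed with the block. HOMER1 (9456), a scaffold of the postsynaptic density, was at 67.8, 73.9 and 73.1 CPM in vehicle and 65.1, 61.3 and 58.7 CPM with Aβ42. Every Aβ42 library was below every vehicle library, and the log2 fold change was -0.21 ± 0.06 (edgeR adjusted p-value 0.0889, 0.0312 with the block, and 0.0262 to 0.328 over the alternatives). A short activity-induced form and long constitutive forms of HOMER1 are known, and gene-level counts do not separate them. ARC (23237), a capsid-like protein of synapses, was at 29.8, 22.0 and 29.3 CPM and 31.3, 30.9 and 33.3 CPM. Its groups did not overlap, but vehicle replicate 2 set most of the difference (same-numbered log2 differences of 0.07, 0.49 and 0.19), and the adjusted p-value was 0.211, and 0.0612 with the block.

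BDNF (627), the secreted neurotrophin, was low, at 3.06, 2.55 and 3.35 CPM and 4.69, 3.27 and 4.86 CPM. It was higher in all 3 pairs, with a log2 fold change of 0.51 ± 0.21 and an edgeR adjusted p-value of 0.169 (0.0643 with the block, and 0.0235 without Aβ42 replicate 2). The libraries are stranded per the labels, but whether counting used strand is not given in the sources used here, so reads of its antisense gene could be included. NPAS4, a factor switched on by calcium in neurons, was at 18.5 to 22.9 CPM and 20.7 to 27.2 CPM, and VGF, a neuropeptide precursor induced by BDNF, at 59.6, 48.6 and 61.7 CPM and 54.1, 60.0 and 67.7 CPM. NPTX2, a secreted pentraxin that clusters glutamate receptors, had 11 to 22 counts per library and a log2 fold change of -0.25 ± 0.32. Values of NPAS4, VGF and NPTX2 overlapped between groups. Beside this set, the summed level of the 12 neuronal markers was 6591 to 7011 CPM in vehicle and 6177 to 6513 CPM with Aβ42, and none was at 0. At an unadjusted edgeR p-value under 0.05, 4 markers were lower (11.5% of all genes tested) and 1 higher (12.4%). Lower markers were also found in 2 other lists: 5 of 10 progenitor markers and 2 of 5 astrocyte markers were lower, and 1 of each list was higher. No tested choroid plexus, microglia, endothelial, mesenchymal or pluripotent marker was lower. Unlike the neuronal sum, the progenitor sum overlapped between groups (3048 to 3107 CPM in vehicle, 3002 to 3112 CPM with Aβ42). So did the astrocyte sum (766 to 852 CPM and 611 to 802 CPM). The part of the neuronal marker difference in the neuronal activity genes was not tested.

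In 7 lists of other genes of the same pathways, 113 genes were tested and the median log2 fold change was 0.01. At an unadjusted p-value under 0.05, 18 were higher (15.9%, against 12.4% of all genes tested) and 16 lower (11.5% of all genes). With the block 11 were higher (9.73%, against 7.12%) and 12 lower (7.05% of all genes). Pooled over the lists, the shares higher lie near those of all genes. Shares in single lists of 11 to 24 tested genes varied more, and the genes named from each list are given as values. Of 24 genes of the ERK cascade, 2 were higher and 4 lower, led by the ETS factor ELK4 (log2 fold change 0.29) and the scaffold KSR1 (0.14) among those higher and the GTPases NRAS (-0.21) and HRAS (-0.25) among those lower. Among 12 further ERK output genes the receptor EPHA2 (0.43) and the ETS factor ETV4 (0.30) were higher and PHLDA1 (-0.17) lower. With the block ELK4, EPHA2, NRAS, HRAS and PHLDA1 passed, and KSR1 and ETV4 did not.

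At an unadjusted p-value under 0.05, 5 of 21 calcium and CREB signalling genes were higher (23.8%, against 12.4% of all genes tested) and 4 lower (11.5% of all genes). With the block 4 were higher (19.0%, against 7.12%) and 3 lower (7.05% of all genes). CREB1 (1385), the factor that binds the TGACG core shown above for FOS, was at 149, 157 and 158 CPM in vehicle and 138, 137 and 125 CPM with Aβ42, and its coactivator EP300 (2033) at 174, 177 and 178 CPM and 152, 158 and 145 CPM. Both were lower without overlap, with log2 fold changes of -0.21 ± 0.05 and -0.22 ± 0.05 (edgeR adjusted p-values 0.0734 and 0.0722, and 0.0160 and 0.0101 with the block). The kinase CAMK2D (0.24) and the factor MEF2D (0.17) were higher. Of 16 JNK and p38 kinases, at the unadjusted threshold, 2 were higher (MAPK13 0.61, MAP2K6 0.11) and 2 lower (MAPK10 -0.21, MAPK8 -0.13). The share higher was 12.5%, against 12.4% of all genes tested.

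ATF3, a bZIP partner of JUN, was the 1 gene of 11 tested AP-1 partners with an unadjusted p-value under 0.05 (log2 fold change 0.37 ± 0.08). In the list of actin-linked SRF targets, TAGLN (0.39) and FHL2 (0.42) were higher while ACTB, the β-actin gene, was at 2466, 2538 and 2518 CPM in vehicle and 1843, 2298 and 2016 CPM with Aβ42 (log2 fold change -0.29 ± 0.07, edgeR adjusted p-value 0.0744, and 0.00250 with the block), and MRTFB (-0.18) was also lower. At an unadjusted p-value under 0.05, 4 of 18 late activity genes were higher (22.2%, against 12.4% of all genes tested) and 3 lower (11.5% of all genes). The clock and CREB target PER1 went from 26.5 ± 1.92 to 36.8 ± 7.14 CPM (SD, n = 3 each; log2 fold change 0.48) and BTG2 had a log2 fold change of 0.20. PENK (-0.48), which encodes enkephalins, and PCSK1 (-1.36), a prohormone convertase gene at 0.366 to 2.07 CPM, were lower.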

How the data were processed

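The 6 libraries (3 vehicle, 3 Aβ42) were grouped by their labels. The authors deposited 1 table that holds, for each gene, a TPM and an estimated count from every library. The headers call the latter read counts, but only 86.9% to 87.5% of the values per library were whole, so they were treated as estimated counts and rounded. The submitters' processing notes name STAR 2.7.11b, featureCounts 2.0.6 and GRCh38 without saying which tool made the values, and a strand setting is not given in the sources used here. The deposited TPM were used for levels between genes.

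Genes kept by filterByExpr (13842) were compared with edgeR 4.0.16 (quasi-likelihood test, robust, TMM scaling, R 4.3.3), two-sided, with Benjamini-Hochberg adjustment over all genes tested and a threshold of 0.05. SE is the size of the log2 fold change over the square root of F. CPM are TMM-scaled, and same-numbered log2 ratios add 0.1 CPM. The procedure was tested on simulated data. The design text calls the 3 libraries of a group independent biological replicates. Alternatives were other scalings, filters, DESeq2 1.42.0, limma 3.58.1, TPM scales, the replicate block, a length correction and leaving out libraries.

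Deviations from the group means (12186 genes whose mean count was 50 or more) correlated at 0.181, 0.388 and 0.129 between libraries numbered 1, 2 and 3. All exceed 0.1, so same-numbered libraries were treated as pairs, from the data alone. Vehicle replicate 3 correlated more with Aβ42 replicate 1 (0.177) than with its own number. Aβ42 replicate 3 likewise correlated more with vehicle replicate 1 (0.154). The correlations therefore set apart the libraries numbered 2, but do not decide how those numbered 1 and 3 pair. Results with the block or by pairs rest on the numbers as given. No pair of libraries agreed within counting noise (chi-square of at least 3.16 per gene), so none was counted as a library deposited more than once.

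Members and lists were chosen with earlier results of these data known. Values in every library are given for members without overlap and with an unadjusted p-value under 0.05, the 3 with the highest TPM and the 1 with the smallest p-value per role, and, chosen after their values were seen, for members passing with the block and for FOSL1 and BDNF. In each pathway list the 2 genes with the smallest unadjusted p-values under 0.05 per direction are named. Counts over same-numbered pairs, and block fits without a number, were added after the data were seen.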

Additional observations from a re-analysis of the deposited data

How the results depend on the processing

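The number of members passing as higher, 0 without a block, was 2 with no filter on low counts, 7 with DESeq2, 13 under quality weights, 11 under the replicate block and 11 under that block plus the length correction. The number passing as lower was 1 in the last 3 of these and 0 in the first 2. All 12 members called with the block were also called under quality weights and when Aβ42 replicate 2 was left out. These 2 settings are not separate support, since both reduce or remove the part of Aβ42 replicate 2. That library was the lowest of its group for 30 of the 41 members. Of the 12, 7 were called by DESeq2 and 11 under the block plus the length correction, but none under the length correction alone. Over all genes the shares called higher were 1.09% with no filter, 3.01% by DESeq2, 8.75% under quality weights, 7.12% under the block and 7.45% under the block plus the length correction. Leaving out libraries, with or without the block, gave 0 to 16 higher and 0 to 1 lower. Leaving out any library but Aβ42 replicate 2 without a block gave 0.

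At an unadjusted p-value under 0.05, 14 members higher became 22 under quality weights, 23 under the replicate block and 8 to 22 when libraries were left out (19 when this was vehicle replicate 1, but 8 and 9 for replicates 1 and 3 of Aβ42). Over all genes tested, counted in either direction, 3302 without a block became 4830 under quality weights and 4060 under the block. They became 3015 without vehicle replicate 1, and 2103 and 1871 without replicates 1 and 3 of Aβ42. The 1 member lower became 2 under quality weights and 2 on the log2(TPM + 1) scale, and 0 to 2 when libraries were left out. Members without overlap were 14 to 25 higher and 1 to 2 lower when 1 library was left out, 20 without vehicle replicate 1 and 25 without Aβ42 replicate 2. With fewer libraries any gene separates more easily, and the share over all genes was not counted for these fits. The counts can therefore not be read as a gain among the members.

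In the pathway lists, 0 genes passing became 2 higher and 2 lower with no filter, 4 and 6 with DESeq2, 13 and 12 under quality weights, 11 and 12 under the replicate block, 14 and 10 with the block and the length correction, and 0 to 15 and 0 to 14 when libraries were left out. At an unadjusted p-value under 0.05, 18 higher became 8 on both TPM scales and 9 to 23 when libraries were left out, and 16 lower became 9 to 27. Over all genes tested, in either direction, 3302 without a block became 3301 and 3287 on the TPM scales. With libraries left out they ran from 1871 to 5170. The cause of these shifts was not tested.

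The members' median log2 fold change of 0.23 stayed positive in every fit. That of the EGR and NR4A factors ran from -0.01 without vehicle replicate 2 to 0.22 with the block and without number 1 (0.20 without vehicle replicate 1), and that of the other feedback genes from 0.12 to 0.32 (without Aβ42 replicate 1 and vehicle replicate 1). Signs turned in these fits only for EGR1, EGR3, DUSP2, SPRY2, SPRY4, ZFP36 and VGF. EGR1 was at -0.01 on both TPM scales and -0.06 to 0.10 when libraries were left out, and EGR3 at -0.05 to 0.13. DUSP2 and SPRY2 were at 0.01 under upper-quartile scaling. With libraries left out, DUSP2 ran from -0.18 to 0.17 (-0.16 without Aβ42 replicate 2 and 0.09 without vehicle replicate 3), and SPRY2 from -0.06 to 0.04 (0.0024 without vehicle replicate 3). SPRY4 was at 0.02 with quality weights and at -0.09 to 0.04 with libraries left out (-0.08 without Aβ42 replicate 3), and ZFP36, at 0.21 with all libraries, was at -0.04 with the block and without number 3. The log2 fold change of VGF was -0.00082 without vehicle replicate 2 and -0.00059 with the block and without number 2. The median over all genes moved to -0.040 and -0.043 on the TPM scales. Depth limits EGR4, KLF2, KLF4, FOSL1, NPTX2 and ZFP36 most.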
